A study of Rattus norvegicus with 4 samples.

Results

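The genes described here encode the subunits of the receptors for glutamate, GABA and glycine, the fast transmitters of the brain. The rule of membership was the symbol, and it was set with earlier results of these data known. It took every entry of the deposited RPKM table named as an AMPA (Gria), kainate (Grik), delta (Grid), NMDA (Grin1 to Grin3) or metabotropic (Grm) glutamate receptor. It also took entries named as a GABA-A or rho (Gabr), GABA-B (Gabbr) or glycine receptor (Glra and Glrb). The rule gave 50 of the 17853 genes of the table, with 1 entry each. There were 4 AMPA, 5 kainate, 2 delta, 6 NMDA and 7 metabotropic glutamate receptor genes. The others were 6 alpha, 3 beta, 3 gamma, 3 rho and 4 further GABA-A subunit genes, 2 GABA-B genes and 5 glycine receptor genes.

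Brain tissue came from Rattus norvegicus after intracerebral hemorrhage, in which blood escapes into brain tissue, and polyadenylated RNA was sequenced. The 4 groups were ipsilateral brain (the side of the bleeding) at 21 months, contralateral brain (the opposite side) at 21 months, ipsilateral brain at 13 months and contralateral brain at 13 months. All 4 groups carried the hemorrhage, so the opposite side of an injured animal was the only comparator, with no animal free of hemorrhage. Each group was 1 library of RNA pooled from several brains, the labels' protocols naming 9 brains without saying how they fell on the groups. Strain, sex, hemorrhage model, time after the bleeding and the part of the hemisphere taken were not stated in the labels.

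With 1 library per group the values below carry no error, and a difference between a pair of libraries carries no test. RPKM, reads scaled for gene length and for the mapped total, allows levels of different genes to be set side by side, although the gene lengths used are not known. Differences are log2 ratios of RPKM after adding 1 RPKM, which understates the change of low genes. They were read for the 12160 genes that averaged 1 RPKM or more across the libraries, and 37 of the 50 receptor genes were among these. The 1 test was a limma fit of side with age as a second term, over all 4 libraries. Its threshold was a Benjamini-Hochberg adjusted p under 0.05. A gene's own noise is the difference of its side ratio between the ages, and limma draws it strongly toward a value shared by all genes. Standard errors (SE) were therefore alike, 0.169 for Gria2 and 0.186 for Grik5, whose side ratios differed between the ages by -0.03 and 0.72.

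Glutamate opens cation channels of the AMPA, kainate and NMDA type, which are assembled from subunits, and acts on metabotropic receptors that signal through G proteins. GABA and glycine open chloride channels built from other subunits, and GABA also acts on the G protein-coupled GABA-B receptor. Subunit makeup sets where a receptor sits, its kinetics and its pharmacology. After a brain hemorrhage glutamate and blood products reach these receptors, and overactive glutamate channels can injure neurons.

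The receptor genes were lower on the side of the bleeding at 13 months and less so at 21 months. Summed over the 50 genes, RPKM at 21 months was 728.5 ipsilaterally and 792 contralaterally, so that the bleeding side had 92.0% of the opposite side. At 13 months the sums were 611 ipsilaterally and 836 contralaterally, and the bleeding side had 73.1%. The receptor genes took 0.181% of the library's RPKM sum ipsilaterally and 0.204% contralaterally at 21 months, and 0.155% ipsilaterally and 0.214% contralaterally at 13 months. Mitochondrially encoded genes took 20.6% ipsilaterally and 24.1% contralaterally at 21 months, and 18.5% ipsilaterally and 23.3% contralaterally at 13 months, and their part in the receptor values was not tested beyond the scalings below. The ipsilateral library of 13 months was lowest of the 4 for 33 of the 37 genes, as it was for 31.9% of all 12160 genes. The contralateral library of 13 months was highest for 26 of the 37, against 20.1% of all genes. For 23 of the 37 both ipsilateral libraries lay below both contralateral ones, against 22.1% of all genes, and for 0 of the 37 both lay above, against 34.4%.

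**Figure D1:**
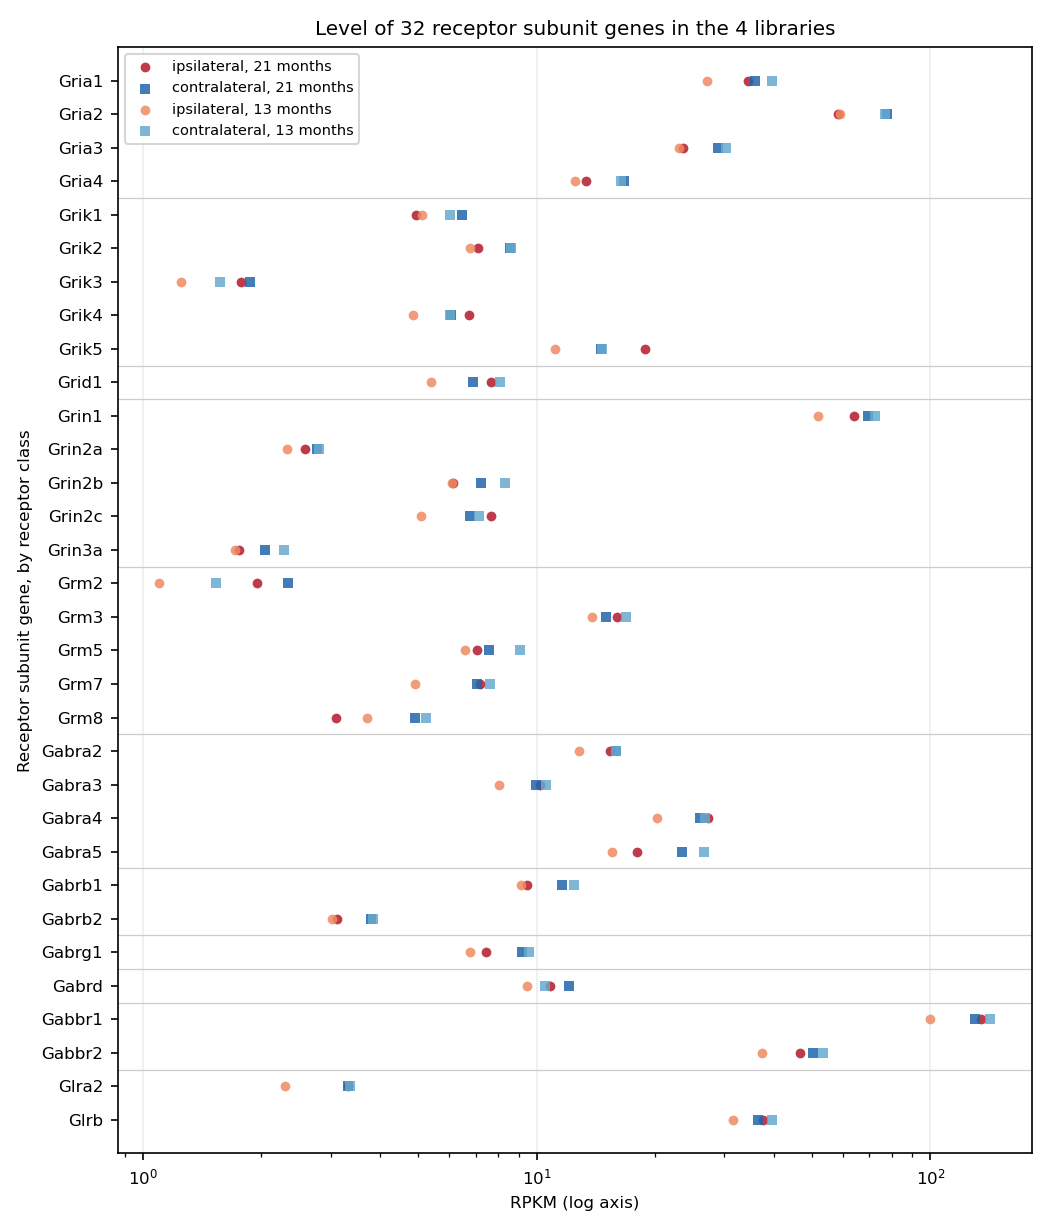
Level in RPKM (log axis) of 32 receptor subunit genes that averaged 1 RPKM or more, each point being 1 library; circles are ipsilateral and squares contralateral libraries, at 21 months (dark) and 13 months (light). The light circle of the ipsilateral library at 13 months is the lowest point in 29 of 32 rows, and Gabbr1 reaches the highest level.

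At 21 months the median log2 side ratio of the 37 genes was -0.10, where that of all genes was 0.09, and at 13 months it was -0.38, where that of all genes was 0.01. Side ratios were below 0 for 26 of 37 genes at 21 months, against 38.9% of all genes, and above 0 for 11, against 60.8%. At 13 months they were below 0 for 37 of 37, against 48.9% of all genes, and above 0 for 0, against 50.8%. A ratio of 0.5 or more was seen in 0 of 37 at either age, against 16.3% of all genes at 21 months and 15.2% at 13 months. Below 0 at both ages were 26 of 37, against 26.5% of all genes. With the 13 genes under 1 RPKM included, 32 of 50 were below 0 at 21 months and 45 of 50 at 13 months, at medians of -0.06 and -0.34.

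The size of these differences was moderate. No receptor gene reached a log2 side ratio of 1 or -1 at either age, whereas 5.61% of all genes were at or above 1 at 21 months and 7.19% at 13 months, with 0.288% and 0.0658% at or below -1. A ratio of -0.5 or less was reached at 21 months by 1 of 37 genes (Grm8), against 2.94% of all genes. At 13 months it was reached by 5 of 37 (Gria1, Grid1, Grm7, Gabra5 and Gabbr1), against 4.09%. The limma fit over both ages called 1 of 37 genes as fallen and 0 as risen, against 0.814% and 13.3% of all genes. At an unadjusted p under 0.05 it counted 5 of 37 lower and 0 higher, against 4.47% and 18.9%.

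At 21 months the signs depended in part on scaling. The libraries were also scaled in 3 ways, by the median ratio, by equal sums of nuclear-encoded genes and by a trimmed mean. These put the all-gene median of the side ratio at -0.01, -0.01 and -0.02, and the receptor median at -0.21, -0.21 and -0.23. Under each of them 33 of 37 genes were below 0 at 21 months, the change of sign being in Grm3, Grm7, Gabra3, Gabra4, Gabbr1, Glra2 and Glrb, against 50.6% to 52.5% of all genes. At 13 months all 37 stayed below 0 under all of these scalings, against 50.8% to 59.0% of all genes.

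**Figure D2:**
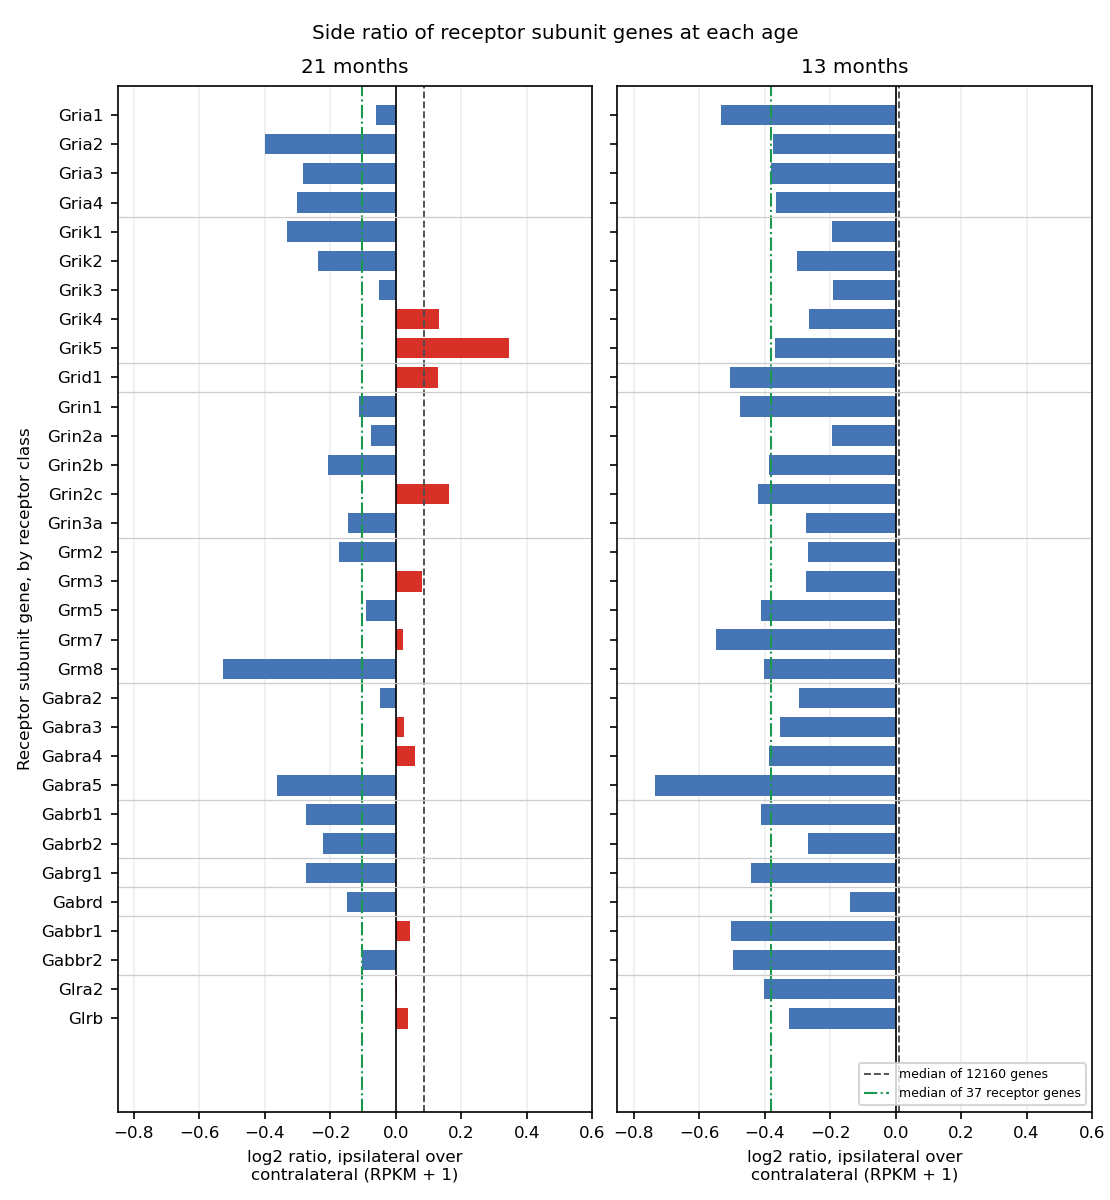
Side ratio (log2, ipsilateral over contralateral, 1 RPKM added to each) for 32 receptor genes at 21 months (left) and 13 months (right), 1 bar per gene, with the medians of 12160 genes (dashed) and of 37 receptor genes (dash-dotted). At 13 months all bars point left, down to -0.74 for Gabra5, while at 21 months 11 point right (against 60.8% of all genes), up to 0.35 for Grik5; 7 of these 11 turn left when libraries are rescaled.

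The AMPA receptor genes, whose channels carry most fast excitatory transmission, were lower ipsilaterally at both ages. Gria2, the subunit that after RNA editing keeps calcium out of the channel, had 58.4 RPKM ipsilaterally and 77.4 RPKM contralaterally at 21 months, and 59.1 RPKM ipsilaterally and 76.9 RPKM contralaterally at 13 months. Its side ratio was nearly equal at both ages, -0.40 at 21 months and -0.37 at 13 months. Gria1, which joins synapses during plasticity, had 34.4 RPKM ipsilaterally and 35.9 RPKM contralaterally at 21 months, and 27.1 RPKM ipsilaterally and 39.7 RPKM contralaterally at 13 months. Its ratio was -0.06 at 21 months and -0.53 at 13 months, so the ipsilateral library of 13 months stood lowest. Gria3 had 23.6 RPKM ipsilaterally and 29.0 RPKM contralaterally at 21 months and 23.0 RPKM ipsilaterally and 30.2 RPKM contralaterally at 13 months, with ratios of -0.28 and -0.38. Gria4 had 13.4 RPKM ipsilaterally and 16.7 RPKM contralaterally at 21 months and 12.5 RPKM ipsilaterally and 16.4 RPKM contralaterally at 13 months. In Gria2, Gria3 and Gria4 both ipsilateral libraries were below both contralateral ones, and in Gria1 too, by a narrow margin. None of the 4 was called in limma, Gria2 having an adjusted p of 0.16.

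Kainate receptor genes, whose products modulate release and excitability, differed in the direction of their side ratio at 21 months. None of the 5 was called in limma. Grik1, Grik2 and Grik3 encode subunits that can form channels on their own. Grik2 had 7.11 RPKM ipsilaterally and 8.57 RPKM contralaterally at 21 months, and 6.79 RPKM ipsilaterally and 8.60 RPKM contralaterally at 13 months. Grik1 had 4.93 RPKM ipsilaterally and 6.46 RPKM contralaterally at 21 months and 5.12 RPKM ipsilaterally and 6.01 RPKM contralaterally at 13 months. Grik3, the lowest of the class, had 1.77 RPKM ipsilaterally and 1.87 RPKM contralaterally at 21 months and 1.25 RPKM ipsilaterally and 1.57 RPKM contralaterally at 13 months. All 3 were lower ipsilaterally at both ages, Grik3 only slightly at 21 months (-0.05).

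Grik4 and Grik5 encode the high-affinity subunits, which need a partner of the other kind. Grik5 had 18.8 RPKM ipsilaterally and 14.6 RPKM contralaterally at 21 months, and 11.1 RPKM ipsilaterally and 14.7 RPKM contralaterally at 13 months, log2 ratios of 0.35 and -0.37. Grik4 had 6.74 RPKM ipsilaterally and 6.06 RPKM contralaterally at 21 months, and 4.86 RPKM ipsilaterally and 6.04 RPKM contralaterally at 13 months, log2 ratios of 0.13 and -0.26. In both genes the ipsilateral library was the highest of the 4 at 21 months and the lowest at 13 months, while the contralateral libraries lay within 0.1 RPKM of each other. The ratio at 21 months was above 0 under the 3 other scalings too.

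The delta receptor genes encode proteins that bind cerebellins at the synapse and resemble glutamate channels. Grid1 had 7.65 RPKM ipsilaterally and 6.91 RPKM contralaterally at 21 months, and 5.39 RPKM ipsilaterally and 8.07 RPKM contralaterally at 13 months, log2 ratios of 0.13 and -0.51. The ipsilateral library of 13 months was the lowest of the 4 and the contralateral one of that age the highest.

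NMDA receptors need glutamate together with glycine or D-serine to open and admit calcium. Grin1, the subunit present in every NMDA receptor, had 64.0 RPKM ipsilaterally and 69.3 RPKM contralaterally at 21 months, and 51.9 RPKM ipsilaterally and 72.5 RPKM contralaterally at 13 months. Its ratios were -0.11 and -0.48, and both ipsilateral libraries lay below both contralateral ones. Grin2b, which gives slow currents and prevails in the young forebrain, had 6.14 RPKM ipsilaterally and 7.24 RPKM contralaterally at 21 months and 6.11 RPKM ipsilaterally and 8.30 RPKM contralaterally at 13 months. Grin2a, the prevailing partner in adult forebrain, had 2.58 RPKM ipsilaterally and 2.77 RPKM contralaterally at 21 months and 2.32 RPKM ipsilaterally and 2.80 RPKM contralaterally at 13 months. For Grin2a and Grin2b too, the ipsilateral libraries were the 2 lowest.

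Grin2c, a subunit of cerebellar neurons and of astrocytes, differed from the other NMDA genes at 21 months. It had 7.68 RPKM ipsilaterally and 6.76 RPKM contralaterally at 21 months, and 5.10 RPKM ipsilaterally and 7.16 RPKM contralaterally at 13 months, log2 ratios of 0.16 and -0.42. Grin3a, which lowers the calcium permeability of the channel, had 1.75 RPKM ipsilaterally and 2.04 RPKM contralaterally at 21 months and 1.71 RPKM ipsilaterally and 2.28 RPKM contralaterally at 13 months. Grin2d had 1.22 RPKM ipsilaterally and 0.91 RPKM contralaterally at 21 months and 0.56 RPKM ipsilaterally and 1.27 RPKM contralaterally at 13 months, and with a mean of 0.99 RPKM it lay just under the filter. Its sides were in the same order as those of Grin2c at both ages.

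Metabotropic glutamate receptors fall into groups by G protein. Grm5 couples to Gq and raises calcium in the postsynaptic cell. Grm5 had 7.06 RPKM ipsilaterally and 7.58 RPKM contralaterally at 21 months, and 6.59 RPKM ipsilaterally and 9.09 RPKM contralaterally at 13 months. Its ratios were -0.09 at 21 months and -0.41 at 13 months, and both ipsilateral libraries lay below both contralateral ones.

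Grm2 and Grm3 couple to Gi and restrain transmitter release, Grm3 being found in astrocytes as well. Grm3, the most abundant of the class, had 16.0 RPKM ipsilaterally and 15.0 RPKM contralaterally at 21 months, and 13.8 RPKM ipsilaterally and 16.9 RPKM contralaterally at 13 months. Grm2 had 1.95 RPKM ipsilaterally and 2.33 RPKM contralaterally at 21 months and 1.10 RPKM ipsilaterally and 1.53 RPKM contralaterally at 13 months, so it was higher at 21 months on both sides. Its age ratio, 21 over 13 months, was 0.49 ipsilaterally and 0.40 contralaterally, the contralateral value being the highest of the 37 genes. Grm7 and Grm8, presynaptic receptors that also couple to Gi, were not alike. Grm7 had 7.18 RPKM ipsilaterally and 7.05 RPKM contralaterally at 21 months and 4.90 RPKM ipsilaterally and 7.63 RPKM contralaterally at 13 months, with ratios of 0.02 and -0.55.

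Grm8 had 3.09 RPKM ipsilaterally and 4.90 RPKM contralaterally at 21 months, and 3.71 RPKM ipsilaterally and 5.23 RPKM contralaterally at 13 months. Its ratios of -0.53 and -0.40 made it the lowest of the 37 at 21 months. It was 1 of 5 genes, Gria2, Grik1 and Gabrd also among them, whose ratio was lower at 21 than at 13 months. In limma Grm8 missed the threshold with an adjusted p of 0.077. It passed with median-ratio and with trimmed-mean scaling. Grm6, known from retinal bipolar cells, was listed at no more than 0.36 RPKM.

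GABA-A receptor channels usually hold alpha and beta subunits and a subunit of another kind. Gabra5, an alpha subunit of receptors outside synapses that is abundant in hippocampus, had 18.0 RPKM ipsilaterally and 23.5 RPKM contralaterally at 21 months, and 15.6 RPKM ipsilaterally and 26.6 RPKM contralaterally at 13 months. Both ipsilateral libraries lay below both contralateral ones.

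Gabra5 (ENSRNOG00000010803, chromosome 1 in the table) was the 1 receptor gene called in limma. Its fitted log2 change was -0.55 with an SE of 0.17 over 2 libraries on each side, a fall, with ratios of -0.36 at 21 months and -0.74 at 13 months, and with an adjusted p of 0.0368 in limma. Over the alternatives its adjusted p in limma ran from 0.00763 to 0.232. The call was lost with 0.1 RPKM added in place of 1 (0.0749), with the filter raised to 5 RPKM (0.0658), without the age term (0.0661) and with no filter (0.232).

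Gabra2, Gabra3 and Gabra4 were near equal between the sides at 21 months. Gabra4, which pairs with the delta subunit outside synapses, had 27.2 RPKM ipsilaterally and 26.0 RPKM contralaterally at 21 months, and 20.2 RPKM ipsilaterally and 26.7 RPKM contralaterally at 13 months. Gabra2 had 15.4 RPKM ipsilaterally and 15.9 RPKM contralaterally at 21 months and 12.8 RPKM ipsilaterally and 15.9 RPKM contralaterally at 13 months. Gabra3 had 10.2 RPKM ipsilaterally and 9.98 RPKM contralaterally at 21 months and 8.04 RPKM ipsilaterally and 10.6 RPKM contralaterally at 13 months. For these 3 genes the ipsilateral library at 13 months stood below the other 3 libraries, which lay close together. Gabra6, the subunit of cerebellar granule cells, was listed at 0.04 RPKM or less, and at 0 in the ipsilateral library of 13 months.

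Beta subunits are needed by every common GABA-A receptor. Gabrb1 had 9.45 RPKM ipsilaterally and 11.6 RPKM contralaterally at 21 months and 9.13 RPKM ipsilaterally and 12.5 RPKM contralaterally at 13 months. Gabrb2 had 3.11 RPKM ipsilaterally and 3.80 RPKM contralaterally at 21 months and 3.03 RPKM ipsilaterally and 3.85 RPKM contralaterally at 13 months. In both genes the ipsilateral libraries were below the contralateral ones at either age, with ratios of -0.27 at 21 months and -0.41 at 13 months for Gabrb1 and of -0.22 at 21 months and -0.27 at 13 months for Gabrb2.

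Gamma and delta subunits decide whether a receptor sits in or beside the synapse. Gabrg1 had 7.43 RPKM ipsilaterally and 9.20 RPKM contralaterally at 21 months and 6.77 RPKM ipsilaterally and 9.55 RPKM contralaterally at 13 months. Gabrd, whose receptors give tonic inhibition, had 10.8 RPKM ipsilaterally and 12.1 RPKM contralaterally at 21 months and 9.43 RPKM ipsilaterally and 10.5 RPKM contralaterally at 13 months. At -0.15 and -0.14 the side ratio of Gabrd was the smallest in size of the 37 genes at 13 months, and its level was higher at 21 months on both sides.

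Low members of the family were Gabrg3, at 0.78 to 1.20 RPKM, Gabrq, at 0.29 to 0.54 RPKM, Gabre, at 0.17 to 0.24 RPKM, and Gabrp, at 0.04 to 0.09 RPKM. The rho genes Gabrr1, Gabrr2 and Gabrr3, known from the retina, were listed at 0.48 RPKM or less. Gabrr2 was the highest of them, with 0.26 RPKM ipsilaterally and 0.12 RPKM contralaterally at 21 months and 0.48 RPKM ipsilaterally and 0.27 RPKM contralaterally at 13 months. The lowest of these values are close to the step of 0.01 RPKM to which the table was rounded. A low listing is no proof of low expression here, since the neuronal enolase gene Eno2, abundant in neurons, was listed at 0.05 RPKM or less.

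Upstream sequences were read for the 34 of 50 genes that RefSeq's promoter table (assembly GRCr8) held, as the 250 bases before the transcript start given there. Shown are the gene called in limma (Gabra5), a kainate gene with opposite ratios at the ages (Grik5) and both beta genes that hold an NRF-1 word. Grik4, which also had opposite ratios, is not shown. NRF-1 is a factor known to act on genes of synaptic transmission and energy metabolism. Capitals mark the words found on either strand, the 10-letter NRF-1 palindrome in Gabrb1 and Gabrb2 and GGGCGG or its reverse complement, the GC box, in Gabra5 and Grik5. All 4 windows, like 16 of the 34, lie inside the gene's annotated span, which reaches further upstream than the start used.
Gabra5 (chr1:117516607-117516856, minus strand): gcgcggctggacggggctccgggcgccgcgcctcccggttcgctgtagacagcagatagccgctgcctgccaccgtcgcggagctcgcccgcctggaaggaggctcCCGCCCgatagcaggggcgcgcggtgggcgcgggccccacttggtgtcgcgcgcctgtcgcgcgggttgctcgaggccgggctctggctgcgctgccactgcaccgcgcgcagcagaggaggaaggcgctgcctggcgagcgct
Grik5 (chr1:89794910-89795159, minus strand): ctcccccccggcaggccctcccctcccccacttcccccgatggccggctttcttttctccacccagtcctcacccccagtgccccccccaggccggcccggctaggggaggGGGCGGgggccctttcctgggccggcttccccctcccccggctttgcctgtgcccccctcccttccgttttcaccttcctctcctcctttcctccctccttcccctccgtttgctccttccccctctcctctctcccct
Gabrb1 (chr14:36902894-36903143, minus strand): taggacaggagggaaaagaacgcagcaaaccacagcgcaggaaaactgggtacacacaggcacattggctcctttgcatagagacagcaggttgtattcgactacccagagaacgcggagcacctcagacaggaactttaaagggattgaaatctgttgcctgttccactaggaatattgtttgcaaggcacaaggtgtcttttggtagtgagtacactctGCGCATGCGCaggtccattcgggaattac
Gabrb2 (chr10:27439543-27439792, plus strand): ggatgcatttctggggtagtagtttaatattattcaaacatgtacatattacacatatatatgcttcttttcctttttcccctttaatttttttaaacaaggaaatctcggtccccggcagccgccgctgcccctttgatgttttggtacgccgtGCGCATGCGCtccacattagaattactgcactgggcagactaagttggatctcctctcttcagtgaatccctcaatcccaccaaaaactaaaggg
The NRF-1 word was in 2 of the 34 receptor windows and in 0.762% of 33469 windows of the same length, and the GC box word in 14 of 34 and in 30.5%. The words TGACGTCA of the cyclic AMP response element and TTCAGCACC of the RE1 site were in 0 of 34, against 1.59% and 0.305% of windows. The palindromes of NRF-1 and of the cyclic AMP response element were counted once, and no shown word overlapped another. The Gabra5 window was 76.4% G and C with 37 CG pairs, and that of Grik5 70.8% with 10. Gabrb1 had 49.2% with 8 and Gabrb2 43.2% with 8. Medians were 59.6% with 9 over the 23 windows of receptor genes past the filter and 56.4% with 5 over the 11 others. Over all 33469 windows they were 51.2% with 5. Whether composition bears on the word counts was not tested. A word in a window is a description of letters and shows no binding.

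The GABA-B receptor is an obligate pair, Gabbr1 binding GABA and Gabbr2 coupling to the G protein. Gabbr1 was the most abundant of the 50 genes, with 134 RPKM ipsilaterally and 130.1 RPKM contralaterally at 21 months, and 100.01 RPKM ipsilaterally and 142 RPKM contralaterally at 13 months. Gabbr2 had 46.8 RPKM ipsilaterally and 50.3 RPKM contralaterally at 21 months, and 37.4 RPKM ipsilaterally and 53.2 RPKM contralaterally at 13 months. Both genes had a ratio of -0.50 at 13 months. At 21 months the ratios were 0.04 and -0.10, and that of Gabbr1 turned negative under the 3 other scalings.

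Glycine receptors consist of alpha subunits and the beta subunit, which anchors them to gephyrin. Glrb had 37.5 RPKM ipsilaterally and 36.6 RPKM contralaterally at 21 months, and 31.5 RPKM ipsilaterally and 39.7 RPKM contralaterally at 13 months. Glra2 had 3.32 RPKM ipsilaterally and 3.31 RPKM contralaterally at 21 months, and 2.30 RPKM ipsilaterally and 3.36 RPKM contralaterally at 13 months. In both genes 3 libraries lay close together and the ipsilateral one of 13 months was lower. Glra1, the adult subunit of brainstem and spinal cord, had 0.93 RPKM ipsilaterally and 1.30 RPKM contralaterally at 21 months and 0.43 RPKM ipsilaterally and 0.87 RPKM contralaterally at 13 months, Glra3 at most 0.21 RPKM and Glra4 at most 0.19 RPKM.

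The makeup of each receptor class was compared as the share of a subunit in the summed RPKM of its class, which does not depend on how libraries are scaled. Grik5 took 47.8% of the kainate sum in the ipsilateral library of 21 months, against 38.8% contralaterally at that age, 38.2% ipsilaterally at 13 months and 39.7% contralaterally at 13 months. Grik1 and Grik2 were lower there, at 12.5% and 18.1%, against 16.3% to 17.6% and 22.8% to 23.3% in the other libraries.

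Gria1 took 26.5% of the AMPA sum in the ipsilateral library of 21 months, against 22.6% contralaterally. At 13 months its share was 22.3% ipsilaterally and 24.3% contralaterally, so the sides were ordered oppositely. Gria2 took 45.0% ipsilaterally and 48.7% contralaterally at 21 months and 48.6% ipsilaterally and 47.1% contralaterally at 13 months. Grm8 took 7.83% of the metabotropic sum ipsilaterally and 11.8% contralaterally at 21 months, and 11.2% ipsilaterally and 11.6% contralaterally at 13 months. Gabra5 was lower in share ipsilaterally at both ages, with 12.4% of the alpha sum ipsilaterally against 14.2% contralaterally at 21 months and 12.3% ipsilaterally against 15.0% contralaterally at 13 months. Gabra4 had its highest share in the ipsilateral library of 21 months, with 18.7% ipsilaterally and 15.8% contralaterally at 21 months, and 16.0% ipsilaterally and 15.1% contralaterally at 13 months.

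Grin1 took 76.7% to 77.8% of the NMDA sum in the 4 libraries, and Grin2c took 9.21% ipsilaterally and 7.60% contralaterally at 21 months, and 7.54% ipsilaterally and 7.59% contralaterally at 13 months. The ratio of Grin2b to Grin2a in RPKM was 2.38 ipsilaterally and 2.61 contralaterally at 21 months, and 2.63 ipsilaterally and 2.96 contralaterally at 13 months. The summed AMPA level was 1.56 times the NMDA level ipsilaterally and 1.79 times contralaterally at 21 months, and 1.80 times ipsilaterally and 1.73 times contralaterally at 13 months. Ionotropic glutamate receptors together had 1.28 times the sum of GABA-A and rho genes ipsilaterally and 1.26 times contralaterally at 21 months, and 1.25 times ipsilaterally and 1.23 times contralaterally at 13 months. That ratio, which leaves out the glycine receptor genes, spanned 1.23 to 1.28 over the 4 libraries.

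**Figure D3:**
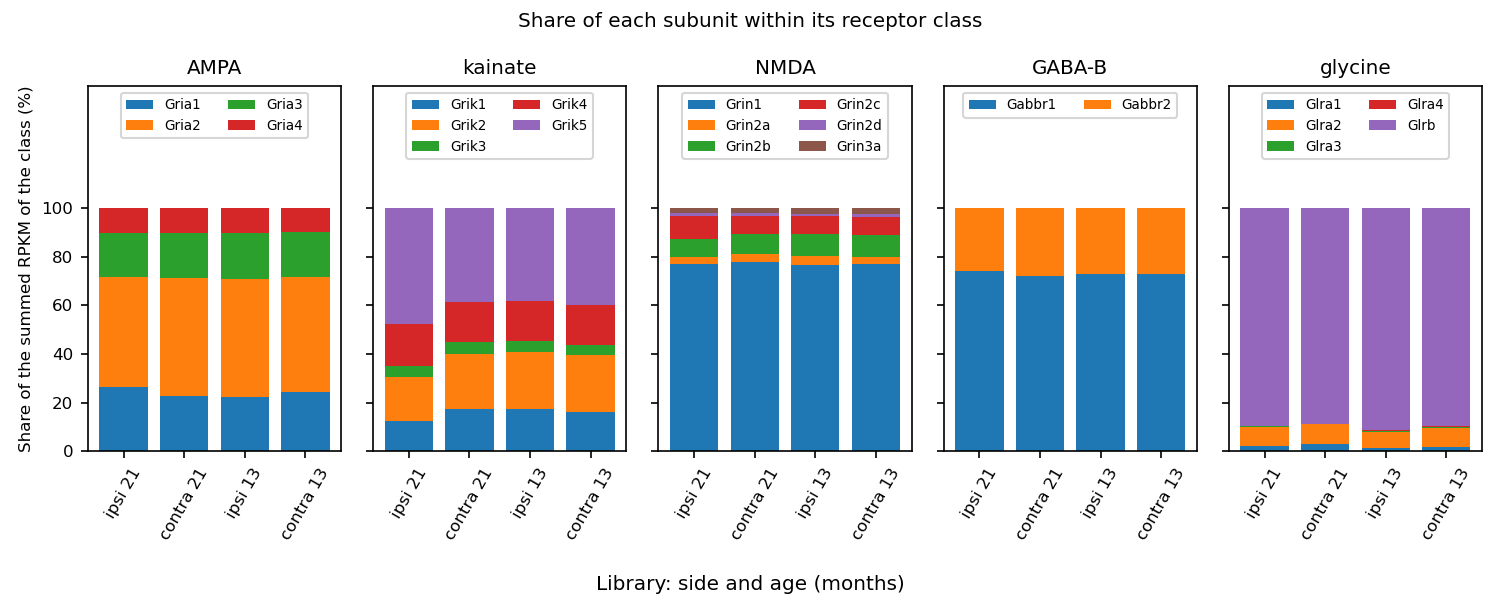
Share of each subunit in the summed RPKM of its receptor class (percent), stacked to 100, with 1 bar per library, in the order ipsilateral and contralateral at 21 months, then ipsilateral and contralateral at 13 months. Grik5 fills 47.8% of the kainate bar of the ipsilateral library at 21 months and 38.2% to 39.7% of the others, while Grin1 holds 76.7% to 77.8% of all NMDA bars.

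The ages were compared on each side. On the ipsilateral side 33 of 37 receptor genes were higher at 21 than at 13 months, against 53.9% of all genes, with a median log2 ratio of 0.20 against 0.03. Grik5 (0.71) and Grin2c (0.51) were at or above 0.5, 2 of 37 genes against 6.53% of all genes. Lower at 21 months were 4 of 37, Grm8 (-0.20), Grik1 (-0.05) and Gria2 (-0.02) among them, against 45.8% of all genes. On the contralateral side 29 of 37 were lower at 21 months, against 58.4% of all genes, and 8 higher, against 40.8%, with a median of -0.06 against -0.03. There 0 of 37 were at or above 0.5, against 0.905%, and 0 at or below -0.5, against 0.666%. The side ratio was higher at 21 than at 13 months for 32 of 37 genes, against 55.7% of all genes, and lower for 5, against 44.3%, with a median difference of 0.25 against 0.05. The difference was at or above 0.5 for Grik5 (0.72), Grid1 (0.63), Grin2c (0.58), Grm7 (0.57) and Gabbr1 (0.55), 5 of 37 genes against 9.79% of all. These age values and the side values share the same 4 libraries. Side ratios of at least 0.1 at 21 months and of -0.1 or less at 13 months were seen in 4 of 37 genes (Grik4, Grik5, Grid1 and Grin2c), against 9.88% of all genes, a share near the background. The opposite order was seen in 0 of 37, against 4.78% of all genes.

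Markers of cell types moved with the side as well. General neuron genes had a median side ratio of -0.22 at 21 months and -0.42 at 13 months over the 16 of 17 genes past the filter, 13 and 16 of them below 0, and 2 (Nefm and Nefh) fell and 0 rose in limma. Summed over the 17 genes, their RPKM on the bleeding side was 88.0% of the opposite side at 21 months and 72.7% at 13 months, next to 92.0% and 73.1% for the receptor genes. Of the 37 receptor genes 12 lay below the neuronal median at 21 months and 9 at 13 months. Gabra5 was 0.31 below it at 13 months and Grm8 0.31 below it at 21 months, and Grik5 was 0.57 above it at 21 months. In bulk tissue scaled to the mapped total, fewer neurons, less RNA per neuron and more RNA of other cells cannot be told apart. The part of the neuronal share in the receptor values was not tested.

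Markers of excitatory projection neurons had medians of 0.03 at 21 months and -0.45 at 13 months over 10 genes, 1 of which fell in limma (Slc17a6). Inhibitory neuron markers had -0.18 and -0.37 over 12 genes, with 0 called. Striatal projection neuron markers had -0.24 and -0.57 over 14 genes, and Gpr6, Pde1b and Rgs9 fell. Microglia and macrophage markers had 1.95 and 2.46 over 11 genes and 10 rose, their summed RPKM being 849 ipsilaterally and 70.4 contralaterally at 21 months and 1375 ipsilaterally and 95.6 contralaterally at 13 months. Astrocyte markers had 0.11 and -0.22 over 11 genes and oligodendrocyte lineage markers 0.24 and -0.03 over 12, with 0 called in either. Endothelial and mural cell markers had -0.15 and 0.09 over 10 genes, with 0 called.

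The libraries also differed in markers of brain regions. Thalamus and midbrain markers had medians of -0.34 at 21 months and -0.69 at 13 months over 9 genes, 8 and 8 of them below 0. Of these Shox2, Gbx2, Th, Calb2 and Tcf7l2 fell in limma, against 0.814% of all genes, while Prkcd was at 0.04 and 0.06. Choroid plexus and ependymal markers had -0.75 and -0.47 over 7 genes, 7 and 6 of them below 0, and 5 fell, while Rsph1 was at -0.08 and 0.01. Of the hypothalamus, pituitary and pineal markers 6 passed the filter, at -0.02 and 0.19, with Oxt and Avp risen and Tph1 fallen. Oxt (1.25 and 0.18) and Avp (1.14 and 0.19) differed mainly at 21 months. Tph1 (-0.35 and -3.16) had 10.4 RPKM in the contralateral library of 13 months and at most 0.44 RPKM in the others. Cga, which was not called, was at -1.85 and 1.36. Cerebellar markers had -0.21 and -0.41 over 9 of 12 genes, with 0 called. Of the 9, Neurod1 was also in the excitatory list and Pvalb in the inhibitory list. Below the filter were Pcp2 and Cbln3, at 0.07 RPKM or less, and En2, at no more than 0.29 RPKM. Gabra6, which is outside this list, was at 0.04 RPKM or less. Hindbrain markers were at or near 0 except Tph2, which fell, Chat, at no more than 0.92 RPKM, and the glycine transporter gene Slc6a5, at no more than 0.40 RPKM. Whether the tissue pieces of the sides held the same regions was not tested.

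Partner genes of the receptors were described from lists. AMPA and kainate receptor auxiliary subunits, which traffic and tune the channels, had medians of 0.07 at 21 months and -0.34 at 13 months over 16 genes, 5 and 16 of them below 0, with 0 called in limma. Cnih2, an AMPA receptor exporter, had 36.0 RPKM ipsilaterally and 23.7 RPKM contralaterally at 21 months, and 17.4 RPKM ipsilaterally and 29.1 RPKM contralaterally at 13 months. Cnih3 and Porcn had the highest mean side ratios of the list, and Cacng2 (-0.36 and -0.46) and Shisa7 (-0.27 and -0.33) the lowest. Excitatory postsynaptic scaffolds had -0.16 and -0.41 over 21 genes, 18 and 20 below 0, with 0 called, from Homer3 (0.82 and 0.06) and Shank2 to Homer1 (-0.34 and -0.48) and Homer2 (-0.52 and -0.36).

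Inhibitory postsynaptic scaffolds and auxiliary subunits had 0.04 and -0.35 over 13 genes, 5 and 11 below 0. Gabarap, a trafficking and autophagy protein of the GABA-A receptor, was the 1 gene that rose (0.84 and 0.68), Dag1 followed (0.27 and 0.08), and Plcl1 (-0.37 and -0.40) and Iqsec3 (-0.12 and -0.56) were lowest. Gphn, the gephyrin gene, had 12.8 RPKM ipsilaterally and 11.9 RPKM contralaterally at 21 months, and 11.7 RPKM ipsilaterally and 12.3 RPKM contralaterally at 13 months. Its side ratio was -0.07 at 13 months, where that of its partner Glrb was -0.33. Genes of metabotropic receptor signalling had -0.19 and -0.41 over 19 genes, 16 and 18 below 0, with Gnai2 risen (1.03 and 0.67) and Plcb4 fallen (-0.79 and -0.37). Gnaq stood next to Gnai2 at the upper end (-0.11 and -0.12), and Plcb1 next to Plcb4 at the lower end (-0.57 and -0.37).

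Genes of glutamate transport and metabolism had medians of 0.0 at 21 months and -0.23 at 13 months over 17 genes, 8 and 15 below 0, with Slc17a6 fallen and 0 risen. Glul, the astrocytic glutamine synthetase, had 606 RPKM ipsilaterally and 480.3 RPKM contralaterally at 21 months, and 636 RPKM ipsilaterally and 478 RPKM contralaterally at 13 months, and did not pass. Next to Glul, Slc7a11 was at the upper end (0.28 and 0.43), with Slc17a6 (-0.34 and -0.75) and Slc1a6 (-0.08 and -0.42) at the lower end. Genes of GABA and glycine transport and metabolism had -0.08 and -0.42 over 13 genes, 8 and 9 below 0. Shmt2, which makes glycine in mitochondria, rose (0.76 and 0.42), and Gldc had 0.29 at both ages. Slc6a11 (-0.20 and -0.77) and Slc32a1, the vesicular transporter of GABA and glycine (-0.26 and -0.46), were the lowest and were not called.

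**Figure D4:**
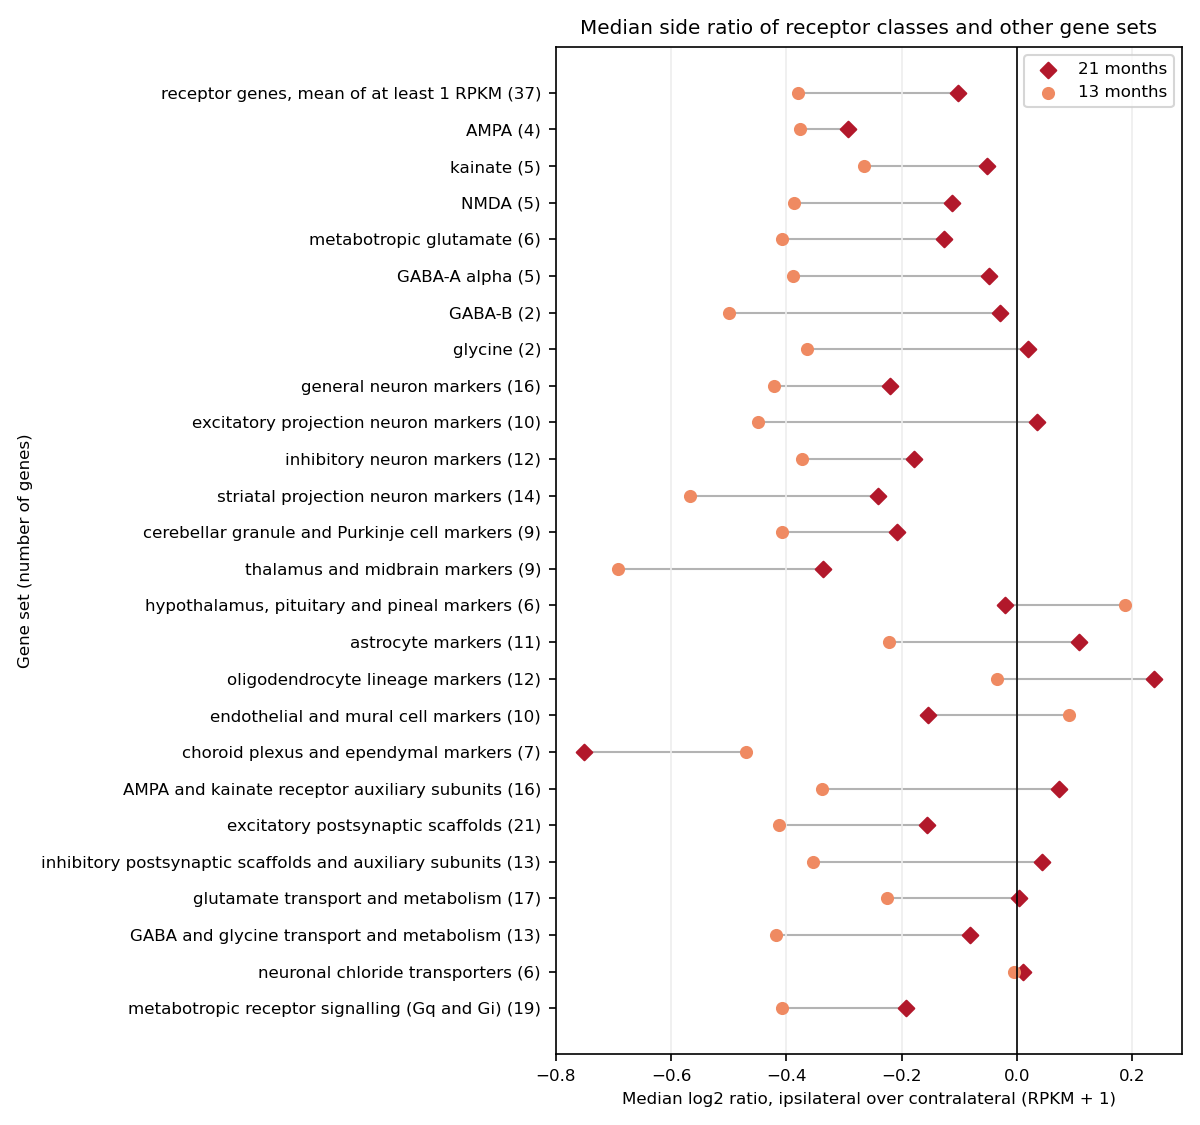
Median side ratio (log2, ipsilateral over contralateral, 1 RPKM added to each) at 21 months (diamonds) and 13 months (circles), for the 37 receptor genes, 7 receptor classes and other gene sets, with the number of genes in brackets and the microglia and macrophage set (1.95 and 2.46) left out for scale. The 7 receptor classes shown lie between -0.50 and -0.26 at 13 months and between -0.29 and 0.02 at 21 months. The delta, rho and GABA-A beta, gamma and further subunit classes are not shown.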

How the data were processed

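Polyadenylated RNA of 4 brain libraries, 1 per group, had been sequenced. Per the labels' protocols, RNA of 9 rat brains was pooled in equal amounts and made into directional libraries. The deposited table gives the authors' RPKM to 2 decimals for 17853 genes. Cutadapt, TopHat2 and edgeR appear in the submitters' processing notes with no version, beside GRCh38, a human build, although the gene identifiers are rat. The build, the counting step, whether it used strand, and the gene lengths are therefore not settled here. Read counts and depth are unknown, and a low value is the least certain.

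Columns were matched to samples by the age and side code of the titles. Ratios were taken of log2(RPKM + 1), over the 12160 genes that averaged 1 RPKM or more. Side ratios at each age and age ratios on each side carry no test. limma 3.58.1 in R 4.3.3 fitted side and age to all genes, two-sided, with 1 residual degree of freedom, and was tested on simulated data. The variance of each gene was moderated toward a value shared by all genes in the fit. Where a symbol was listed more than once, lists used the entry of highest mean. Of 280 entries in 20 gene lists, 259 matched a symbol. Genes with values in every library were, by rule, the highest of each class, the extremes of its side ratio, those past a log2 ratio of 1 and those called. For each list the rule also named the 2 genes of highest and the 2 of lowest mean side ratio. For the lists of cell types and brain regions, not all of these are named here. The remaining receptor genes were added for completeness, and the other genes named were picked after their values were seen. Members and lists were chosen with earlier results of these data known. Of the 37 genes past the filter, 5 entered all counts, sums and fits and are not reported here one by one.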

Additional observations from a re-analysis of the deposited data

Results flagged for a closer look

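Among the 37 receptor genes, 4 had side ratios of at least 0.1 in size and of opposite direction at the ages, higher ipsilaterally at 21 months and lower at 13 months. The same held for 9.88% of all 12160 genes, so the share of receptor genes was near the background. The side ratio at 21 months minus that at 13 months was 0.72 for Grik5, 0.63 for Grid1, 0.58 for Grin2c and 0.40 for Grik4. With 1 library per group this difference between ages was not tested.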

How the results depend on the processing

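The age term of the limma fit compares the sides within each age, and the adjusted p of Gabra5 was 0.0368 with it and 0.0661 without it. The labels give no replicate numbers, so no replicate block could be added. Leaving out a library leaves no residual degree of freedom, so the ratios of each age stand in for it. With median-ratio, equal nuclear sum and trimmed-mean scaling the receptor median at 21 months was -0.21, -0.21 and -0.23, and 2 genes were at or below -0.5 there under each. With the filter raised to 5 RPKM 0 of 28 were. At 13 months genes at or below -0.5 were 8 with 0.1 RPKM added, 12 with equal nuclear sums and 8 with trimmed-mean scaling, against 5. Of all genes, 59.0% were below 0 at 13 months with equal nuclear sums and 51.9% with trimmed-mean scaling, against 48.9%. For age on the ipsilateral side, genes at or above 0.5 were 5 with 0.1 RPKM added and 1 with median-ratio or trimmed-mean scaling, and genes below 0 were 9 of 50 with no filter, 9 with median-ratio and 10 with trimmed-mean scaling. On the contralateral side 1 gene was at or above 0.5 with 0.1 RPKM added. The difference between ages was at or above 0.5 for 3 and 2 genes with median-ratio and trimmed-mean scaling, and below 0 for 8 under each and for 9 of 50 with no filter. In limma 0 receptor genes fell with 0.1 RPKM added, with no filter, with the filter at 5 RPKM and without the age term, and 2 fell (Gabra5 and Grm8) with median-ratio and trimmed-mean scaling. With no filter limma called 0 of all genes as fallen. The cause of these changes was not tested. Under the other settings the share of all genes past 0.5 or -0.5 was not counted, nor that below 0 for the age comparisons. The other 211 recomputed medians, counts and shares stayed within set tolerances, 0.1 for medians and 5 percentage points for shares. For counts the tolerance was wider and relative to the count. The 211 thus include the change from 26 to 33 of 37 genes below 0 at 21 months under the 3 scalings. Of the recomputed values of single genes, 58 moved by more than 0.1 on the log2 scale and 292 did not. The 58 were 22 with equal nuclear sums, 20 with trimmed-mean and 11 with median-ratio scaling, all lower, and 5 with 0.1 RPKM added, 3 lower and 2 higher. With 0.1 RPKM added Grm8 was at -0.65 at 21 months, Glra2 at -0.53 at 13 months and the low gene Gabrr2 at 0.71 at 21 months and 0.65 at 13 months.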

Other observations

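Chloride transporters set whether GABA-A and glycine channels inhibit. Slc12a5, the neuronal chloride extruder, had 33.0 RPKM ipsilaterally and 32.6 RPKM contralaterally at 21 months, and 23.2 RPKM ipsilaterally and 34.0 RPKM contralaterally at 13 months. Slc12a2, a chloride importer also found in glia and choroid plexus, had 22.1 RPKM ipsilaterally and 25.3 RPKM contralaterally at 21 months and 26.2 RPKM ipsilaterally and 24.9 RPKM contralaterally at 13 months. The ratio of Slc12a5 to Slc12a2 was 1.49 ipsilaterally and 1.29 contralaterally at 21 months, and 0.887 ipsilaterally and 1.37 contralaterally at 13 months, so that it was below 1 in the ipsilateral library of 13 months alone. Of 6 chloride transporter genes past the filter Slc12a7 rose in limma (0.60 at 21 months and 0.97 at 13 months), 0 fell, and the medians were 0.01 and -0.01. Slc12a4 had the second highest mean ratio (0.22 and 0.25), and Clcn3 (-0.04 and -0.27) the second lowest after Slc12a5 (0.02 and -0.53).

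The vesicular glutamate transporters of excitatory neurons differed at 21 months. Slc17a7, of cortex and hippocampus, had 149.6 RPKM ipsilaterally and 120.2 RPKM contralaterally at 21 months, and 100.5 RPKM ipsilaterally and 139.6 RPKM contralaterally at 13 months. Slc17a6, of thalamus and brainstem, had 10.6 RPKM ipsilaterally and 13.7 RPKM contralaterally at 21 months and 8.06 RPKM ipsilaterally and 14.2 RPKM contralaterally at 13 months.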
